A study of Homo sapiens with 6 samples.

Results

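RAB3IP, its paralog RAB3IL1 and the small GTPases and tethering factors around them were followed as a set of 10 genes, namely RAB3IP, RAB3IL1, RAB8A, RAB8B, RAB10, RAB13, RAB11A, RAB11B, RAB11FIP3 and EXOC1. They were chosen by symbol as the host gene of the circular RNA circRAB3IP, its paralog and the GTPase pathway it serves, and all 10 were found among the 63677 genes of the count table. Earlier results of these data were known at the choice, so the number called among the 10 is no independent evidence. All 10 passed the filter on low counts and were tested.

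RAB GTPases switch between a GDP-bound and a GTP-bound form and, when loaded with GTP, recruit effectors that move, tether and fuse membrane vesicles. RAB3IP, also called Rabin8, is a guanine nucleotide exchange factor that loads RAB8 with GTP. It is itself bound by GTP-loaded RAB11 on recycling endosomes, and the relay carries vesicles toward the plasma membrane and the base of the primary cilium. There the exocyst, an octameric tethering complex, captures them.

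HEK293, a line of human embryonic kidney origin, was the source of the poly(A) RNA, and libraries were made with a TruSeq RNA kit 48 hours after transfection of siRNA with Lipofectamine RNAiMAX. The siRAB3IP group received an siRNA aimed at circRAB3IP, a circular RNA made from exons of RAB3IP. In the siCAMSAP1 group the siRNA was aimed at circCAMSAP1, a circular RNA of CAMSAP1, and the control group received the siRNA that the labels abbreviate NTC. Each group had 2 libraries, so a 2 against 2 exact permutation test cannot go below a two-sided p of 0.333, and tests were made with a model over all genes. The labels do not state whether replicate libraries stem from independent cultures, and p-values then speak only to the variation among the libraries at hand, possibly technical.

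The labels conflict on which library is which. Libraries were grouped by the names they carry in the authors' deposited tables, since all 8 normalized columns there are exact multiples of a count column. Sample titles put 4 of the 6 libraries in another group, and the genotype field does so for 3. With libraries grouped by titles, and likewise by genotype field, edgeR called 0 genes and 0 of the 10 genes in each of the 3 comparisons. At an unadjusted p under 0.05 there were then 350 to 471 genes per comparison. The results below therefore rest on the table names.

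Fragments assigned to genes numbered 37379217 to 39637733 per library, and 3 counts, taken as the floor, equal 0.0757 to 0.0803 CPM, which are counts scaled to a fixed library total. Between 13.0% and 14.9% of the fragments fell on the 10 most abundant genes. Of genes listed for HEK293, KRT8 (511 to 927 CPM), KRT18 (233 to 453 CPM), VIM (173 to 326 CPM) and HOXA9 (5.17 to 7.63 CPM) were present. PAX2 (0.0255 to 0.227 CPM) and NEFM (0.0803 to 0.333 CPM), also listed for the line, were at or near the floor. Among markers of other cells, HBB and PECAM1 were at 0, PTPRC, ALB and KRT5 did not exceed 0.179 CPM, and COL3A1 had 6.48 to 11.4 CPM. In bulk RNA, fewer cells that express a gene and less RNA per cell cannot be told apart.

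Per length, as length-scaled transcript counts (TPM), RAB10 was the most abundant of the 10 genes, with a mean of 54.2 TPM over the 6 libraries and a range of 52.2 to 56.7 TPM. RAB11A followed with a mean of 40.5 TPM and a range of 38.4 to 42.8 TPM. Neither overlapped its neighbour in the order. RAB8A (mean 13.9 TPM), EXOC1 (13.7 TPM), RAB13 (12.1 TPM) and RAB11FIP3 (11.4 TPM) came next, and each pair of neighbours in this group overlapped in range. RAB8B (7.80 TPM), RAB3IP (7.07 TPM) and RAB11B (6.29 TPM) came after them, with neighbours again overlapping. RAB3IL1 was lowest at a mean of 2.96 TPM, under RAB11B in 6 of 6 libraries. The exchange factor RAB3IP was thus present at a lower level per length than RAB8A, in every library, while its level overlapped with that of RAB8B. The order of RAB3IP and RAB8A rests on the exon bases divided by, 12612 for RAB3IP and 5191 for RAB8A. Without division by length RAB3IP was the higher, with 55.9 to 66.0 CPM against 48.4 to 52.8 CPM for RAB8A. Which transcripts of these genes were expressed was not tested.

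**Figure D1:**
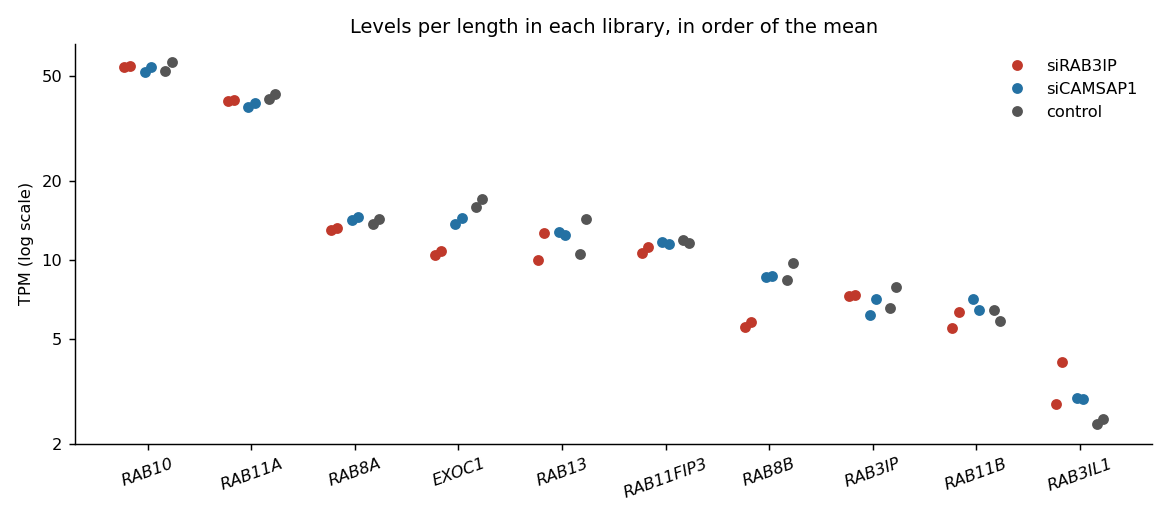
Level per length of the 10 genes (y axis, TPM, log scale) in each of the 6 libraries, ordered along the x axis by the mean over libraries. Points are single libraries of the siRAB3IP, siCAMSAP1 and control groups; RAB10 (mean 54.2 TPM) and RAB11A (40.5 TPM) lie above the rest, and RAB3IL1 (2.96 TPM) lies lowest.

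Levels of RAB8A and RAB11B carry an extra uncertainty, because fragments were counted without regard to strand. On the opposite strand, AC008894.2 covers 1960 exon bases of RAB8A, or 37.8% of them, and RAB11B-AS1 covers 306 exon bases of RAB11B, or 12.4%. HSH2D covers another 207 exon bases of RAB8A on the same strand. The number of fragments assigned to AC008894.2 was 36 to 60 per library, against 1843 to 2064 for RAB8A. RAB11B-AS1 had 133 to 178 fragments, against 376 to 491 for RAB11B. Fragments lying in the shared bases were not counted apart, so these numbers do not measure the effect on RAB8A or RAB11B. Pair shares and sums below that hold RAB8A or RAB11B carry the same uncertainty. For RAB3IP the overlap was 223 bases of the same strand with AC025263.2, which had 0 fragments.

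Against control, siRAB3IP libraries had less RAB8B and EXOC1 mRNA and more RAB3IL1 mRNA, and the host gene RAB3IP itself did not pass the test. With edgeR's quasi-likelihood test, adjusted by Benjamini-Hochberg over 22331 genes at 0.05, 3 of the 10 genes were called, 1 higher and 2 lower. The same rule called 11.6% of all genes tested in this comparison, 6.39% higher and 5.24% lower. That share includes genes of low count, and no share given here was matched for expression level. A fit filtered at a mean of 5 CPM called 2355 genes, and 11784 genes had a TMM-scaled mean of at least 5 CPM. In 6 of the 10 genes both siRAB3IP libraries lay on one side of both control libraries, among them the uncalled RAB3IP, RAB10 and RAB11A. By chance alone such a separation of 2 from 2 libraries has a probability of 0.333. Its share over all genes was not computed, so the count is no result about the set. The median log2 fold change of the 10 genes was 0.06, beside -0.01 over all genes tested.

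**Figure D2:**
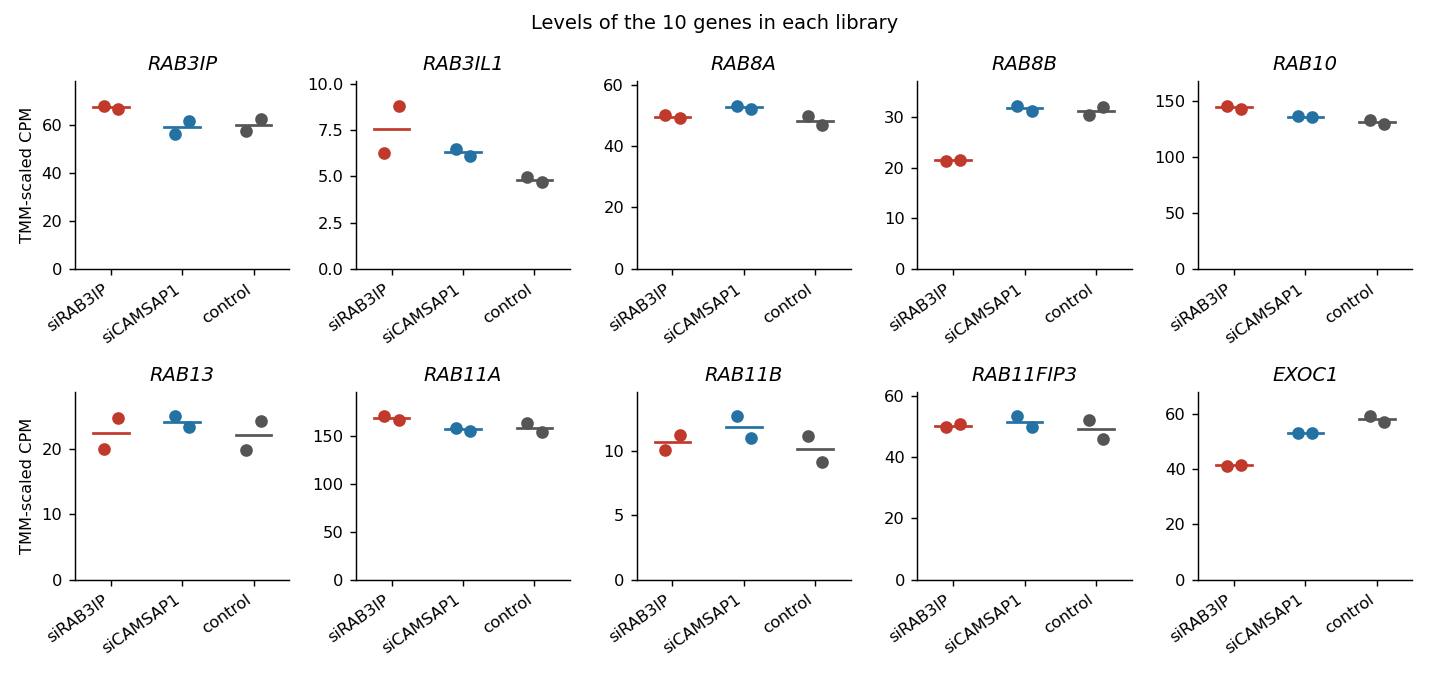
TMM-scaled CPM (y axis, starting at 0) of each of the 10 genes by group (x axis). Points are single libraries and bars are means of 2 libraries; in siRAB3IP libraries RAB8B (21.3 and 21.6 CPM) and EXOC1 (41.2 and 41.6 CPM) lie below all other libraries.

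RAB3IP lies on human chromosome 12 (hg19 chr12:70132461-70216984, plus strand, ENSG00000127328) and is the gene whose circular product the siRNA was aimed at. It had 68.1 and 66.7 TMM-scaled CPM in siRAB3IP libraries and 57.5 and 62.5 CPM in control libraries. Both siRAB3IP libraries were therefore above both control libraries. The log2 fold change was 0.17 ± 0.08 (SE) with an adjusted p of 0.232 by edgeR, so the gene was not called. Circular RNAs have no poly(A) tail and a count per gene does not separate back-spliced from linear reads, so the level of circRAB3IP was not analysed here and the gene count is no check of the knockdown.

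RAB3IL1, also called GRAB, is the paralog of RAB3IP and an exchange factor of the same kind (hg19 chr11:61664773-61687741, minus strand, ENSG00000167994). Its levels were 6.29 and 8.84 CPM in siRAB3IP libraries and 4.95 and 4.69 CPM in control libraries. The groups did not overlap, but the siRAB3IP libraries differed from each other by more than the lower of them differed from control. RAB3IL1 was 1.57-fold higher (log2 fold change 0.65 ± 0.17, edgeR adjusted p = 0.0290). This call depended on single libraries. Without siRAB3IP replicate 2 the log2 fold change was 0.39 and the adjusted p by edgeR 0.274, and without control replicate 1 or 2 the adjusted p was 0.0687 or 0.120.

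RAB8A and RAB8B are the GTPases that RAB3IP loads, and they behaved differently from each other. RAB8B (hg19 chr15:63481668-63559981, plus strand, ENSG00000166128) had 21.3 and 21.6 CPM in siRAB3IP libraries and 30.4 and 31.9 CPM in control libraries. The siRAB3IP libraries were close together and both were below every other library. RAB8B fell by 31.1% (log2 fold change -0.54 ± 0.09, edgeR adjusted p = 0.00248). RAB8A (hg19 chr19:16222439-16245044, plus strand, ENSG00000167461) had 50.1 and 49.1 CPM in siRAB3IP libraries and 49.8 and 46.8 CPM in control libraries, which overlapped. Its log2 fold change was 0.04 ± 0.08 with an edgeR adjusted p of 0.813.

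The makeup of the RAB8 pair differed between the groups. On the TPM scale RAB8B made up 29.8% and 30.5% of RAB8A plus RAB8B in siRAB3IP libraries, against 37.9% and 40.5% in control libraries, and 37.7% and 37.5% in siCAMSAP1 libraries. The means were 30.2 ± 0.488% for siRAB3IP, 37.6 ± 0.181% for siCAMSAP1 and 39.2 ± 1.83% for control (SD, n = 2 each). The sum of both genes was 18.8 ± 0.266 TPM in siRAB3IP libraries, 23.0 ± 0.374 TPM in siCAMSAP1 libraries and 23.1 ± 1.36 TPM in control libraries. Values of RAB8A carry the uncertainty of its exon overlap given above. These shares and sums are descriptions without a test, and TPM carry no TMM scaling. The scaling matters for the sum. Mean RAB8A was lower in siRAB3IP than in control libraries in TPM (13.1 against 14.1) but not in TMM-scaled CPM (49.6 against 48.3).

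**Figure D3:**
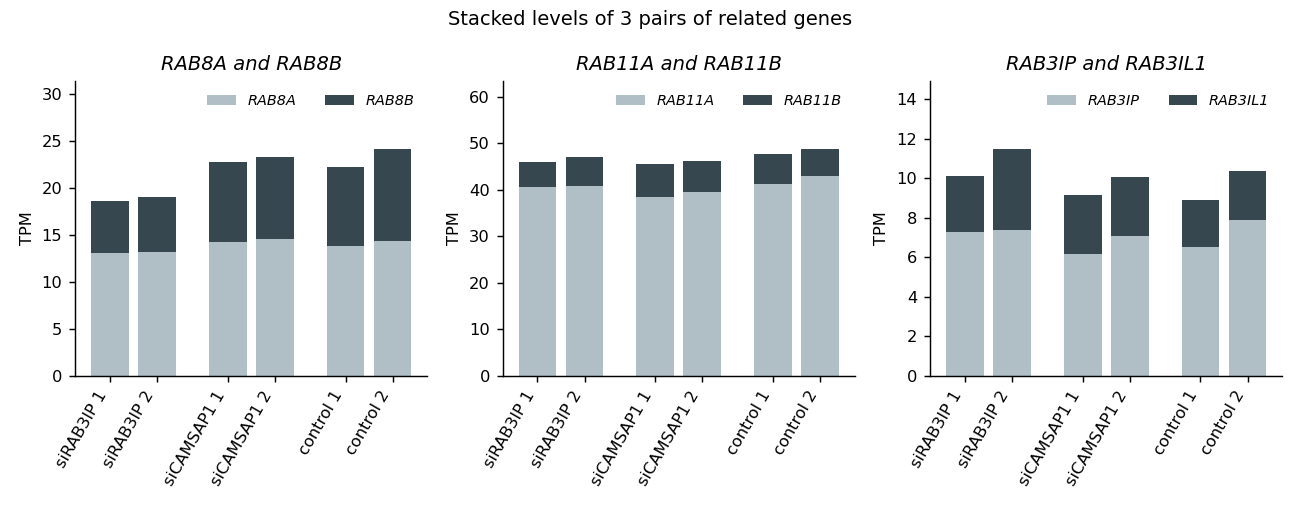
Stacked TPM (y axis) of RAB8A and RAB8B, RAB11A and RAB11B, and RAB3IP and RAB3IL1 in each library (x axis), without error bars since each bar is 1 library. The RAB8B part is 5.55 and 5.80 TPM in siRAB3IP, 8.58 and 8.72 TPM in siCAMSAP1, and 8.41 and 9.76 TPM in control libraries.

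RAB10, which acts in exocytic and recycling transport, had 146 and 143 CPM in siRAB3IP libraries and 133 and 129 CPM in control libraries (hg19 chr2:26256976-26360323, plus strand). These did not overlap, yet the log2 fold change of 0.14 ± 0.07 was not called (edgeR adjusted p = 0.268). RAB13, a GTPase of the same branch known from tight junctions, had 20.02 and 24.7 CPM in siRAB3IP libraries and 19.8 and 24.3 CPM in control libraries (hg19 chr1:153954127-153958834, minus strand). The libraries of each group differed from each other by more than the group means did, with a log2 fold change of 0.02 ± 0.13 and an edgeR adjusted p of 0.952.

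The RAB11 side of the relay showed no called difference. RAB11A (hg19 chr15:66018392-66184329), the ubiquitous GTPase of recycling endosomes, had 170.1 and 166 CPM in siRAB3IP libraries and 163 and 153 CPM in control libraries, with no overlap and a log2 fold change of 0.09 ± 0.08 (edgeR adjusted p = 0.507). RAB11B (hg19 chr19:8454865-8469318), its close paralog, had 10.1 and 11.2 CPM in siRAB3IP libraries and 11.1 and 9.10 CPM in control libraries, which overlapped. RAB11FIP3 (hg19 chr16:475619-573011), a RAB11 effector that brings recycling endosomes to the cleavage furrow, had 49.7 and 50.7 CPM in siRAB3IP libraries and 52.2 and 45.9 CPM in control libraries. The control libraries enclosed the siRAB3IP libraries. Log2 fold changes were 0.08 ± 0.14 for RAB11B and 0.03 ± 0.09 for RAB11FIP3, with edgeR adjusted p of 0.784 and 0.862. RAB11A made up 87.3 ± 1.06% of the RAB11A and RAB11B pair in siRAB3IP libraries, 85.2 ± 1.07% in siCAMSAP1 libraries and 87.2 ± 1.09% in control libraries (TPM, SD, n = 2 each).

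EXOC1, the exocyst subunit also known as SEC3, lies on human chromosome 4 (hg19 chr4:56719782-56771200, plus strand, ENSG00000090989). It had 41.2 and 41.6 CPM in siRAB3IP libraries, 52.9 and 52.9 CPM in siCAMSAP1 libraries and 59.1 and 57.2 CPM in control libraries. All 3 groups were separate, with siRAB3IP lowest and siCAMSAP1 between. In siRAB3IP libraries EXOC1 fell by 28.9% (log2 fold change -0.49 ± 0.08, edgeR adjusted p = 0.00205). The calls of EXOC1 and of RAB8B against control held without any one library.

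The authors' deposited table for siRAB3IP lists 2192 genes, and 2 of the 10 genes are among them. In the authors' deposited table EXOC1 has a log2 fold change of -0.48 ± 0.11 and an adjusted p of 0.000297, and RAB8B has -0.53 ± 0.13 and 0.00143. RAB3IL1 is not listed there. The authors' deposited table for siCAMSAP1 lists 474 genes and 0 of the 10.

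Against control, siCAMSAP1 libraries showed no called difference in the 10 genes. edgeR called 0 of the 10 and DESeq2 also called 0, while 1 gene, RAB3IL1, had an unadjusted p under 0.05. In this comparison edgeR called 0.94% of all genes tested, or 210 genes, and 2703 genes had an unadjusted p under 0.05. RAB3IL1 had 6.50 and 6.12 CPM in siCAMSAP1 libraries and 4.95 and 4.69 CPM in control libraries. The groups did not overlap and the log2 fold change was 0.39 ± 0.17 (edgeR adjusted p = 0.395). The host gene RAB3IP had 56.3 and 61.6 CPM in siCAMSAP1 libraries and 57.5 and 62.5 CPM in control libraries, with a log2 fold change of -0.03 ± 0.08. RAB8B had 32.3 and 31.2 CPM in siCAMSAP1 libraries and 30.4 and 31.9 CPM in control libraries, with a log2 fold change of 0.03 ± 0.09. EXOC1 had a log2 fold change of -0.14 ± 0.08 (edgeR adjusted p = 0.544), the lowest of the 10, and RAB11B had 0.23 ± 0.14 (0.568). The median of the 10 genes was 0.06, beside 0.00084 over all genes tested. Both knockdown comparisons share their control libraries, so a common direction in them is not separate evidence.

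Set directly against siCAMSAP1 libraries, siRAB3IP libraries again had less RAB8B and EXOC1. edgeR called 2 of the 10 genes, both lower, where the rule called 8.85% of all genes tested, 3.96% as lower. RAB8B had 21.3 and 21.6 CPM in siRAB3IP libraries and 32.3 and 31.2 CPM in siCAMSAP1 libraries, a fall of 32.3% (log2 fold change -0.56 ± 0.09, edgeR adjusted p = 0.00238). This difference kept its call without any one library, with adjusted p by edgeR between 0.00175 and 0.0265. EXOC1 was 21.8% lower (log2 fold change -0.36 ± 0.08, edgeR adjusted p = 0.0146). Its call ended when siRAB3IP replicate 1 or 2 was left out (adjusted p = 0.0934 or 0.105 by edgeR), and when siCAMSAP1 replicate 1 or 2 was left out (0.0971 or 0.0743), while its log2 fold change stayed between -0.36 and -0.35. RAB3IP was at 68.1 and 66.7 CPM in siRAB3IP libraries and at 56.3 and 61.6 CPM in siCAMSAP1 libraries, without overlap, and its log2 fold change of 0.19 ± 0.08 was not called (edgeR adjusted p = 0.186). RAB3IL1 differed by 0.26 ± 0.17 between the knockdowns (edgeR adjusted p = 0.393), so its rise against control was not shown to differ between them.

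**Figure D4:**
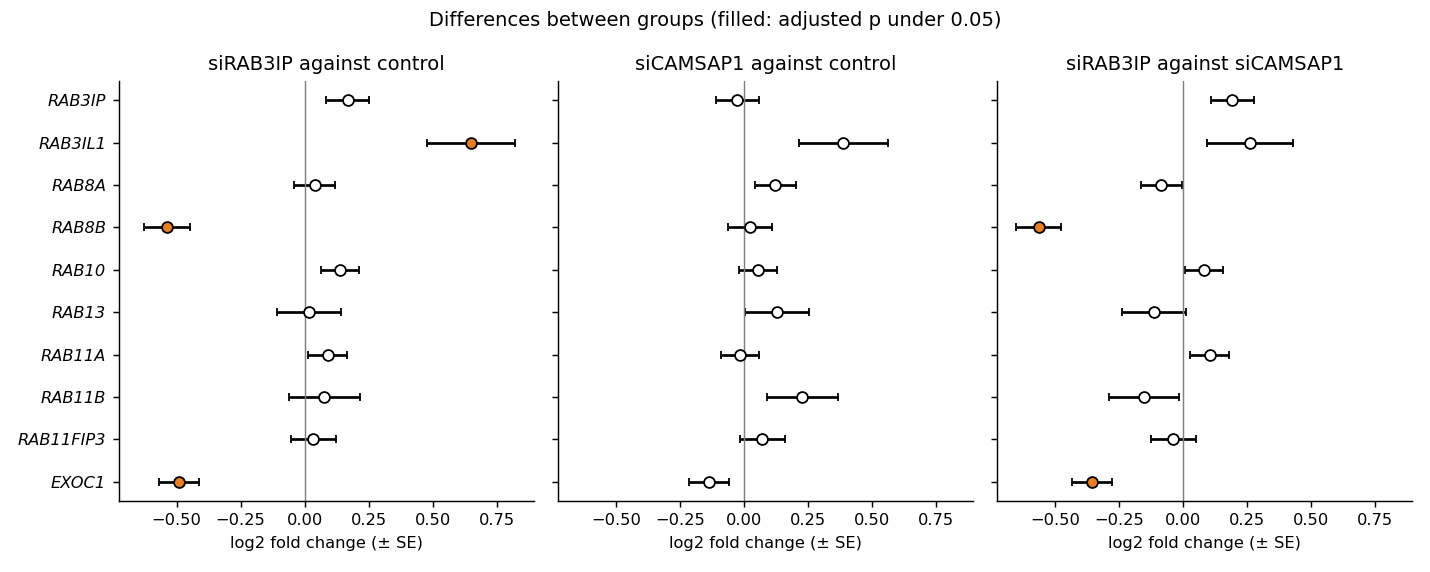
Log2 fold change (x axis) with its SE as the error bar for the 10 genes (y axis) in the 3 comparisons. Filled points have an edgeR adjusted p under 0.05: RAB3IL1 (0.65), RAB8B (-0.54) and EXOC1 (-0.49) against control for siRAB3IP, none for siCAMSAP1, and RAB8B (-0.56) and EXOC1 (-0.36) for siRAB3IP against siCAMSAP1.

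Other genes of the pathway were taken from lists by role. Of 14 activators and inactivators of RAB8, RAB10 and RAB13 tested, edgeR called 0 higher and 1 lower in siRAB3IP against control, or 7.14% of the list beside 11.6% of all genes tested. It called 0 in siCAMSAP1 against control, beside 0.94% of all genes tested, and DESeq2 also called 0. There 1 of the 14 had an unadjusted p under 0.05, beside 2703 of all 22331 genes. The gene called was RPGR, a ciliary protein and exchange factor for RAB8A, with 20.2 and 19.4 CPM in siRAB3IP libraries and 25.2 and 27.7 CPM in control libraries (log2 fold change -0.42 ± 0.10, edgeR adjusted p = 0.0173). Without siRAB3IP replicate 1 or 2 or control replicate 2 its adjusted p by edgeR was 0.0707, 0.119 or 0.120. The list's median log2 fold change was -0.04 in siRAB3IP against control.

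Among 23 effectors of RAB8, RAB10 and RAB13 tested, 5 were higher and 2 lower in siRAB3IP against control by edgeR, which is 30.4% of the list beside 11.6% of all genes tested, with a list median of 0.0069. By direction, 6.39% of all genes tested were called higher and 5.24% lower. These shares were not matched for expression level, and the 11.6% includes genes of low count. The called share of all genes was larger at higher expression. A fit filtered at a mean of 5 CPM called 2355 genes, and 11784 genes had a TMM-scaled mean of at least 5 CPM. RIMS1, a scaffold of the presynaptic release zone that binds RAB3, had 3.68 and 3.81 CPM in siRAB3IP libraries and 2.01 and 1.96 CPM in control libraries (log2 fold change 0.92 ± 0.19, edgeR adjusted p = 0.00987). MICALL2, an effector of RAB13 at cell junctions, had 6.90 and 5.81 CPM in siRAB3IP libraries and 4.15 and 2.98 CPM in control libraries (0.84 ± 0.20, edgeR adjusted p = 0.0172). MYO5C, a myosin motor of exocytic vesicles, was lower, with 31.2 and 32.3 CPM in siRAB3IP libraries and 41.9 and 49.0 CPM in control libraries (-0.52 ± 0.11, edgeR adjusted p = 0.00969). Each of the 3 calls ended when some single libraries were left out, while the direction of the change stayed. RIMS1 had a log2 fold change of 0.90 (adjusted p by edgeR of 0.0524) without control replicate 2 and 0.89 (0.0579) without siRAB3IP replicate 2. MICALL2 had 0.71 (0.114) without siRAB3IP replicate 1 and 0.62 (0.123) without control replicate 2. MYO5C had -0.49 (0.0694) and -0.54 (0.0541) without siRAB3IP replicate 1 and 2, and -0.40 (0.0728) without control replicate 2.

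In siCAMSAP1 against control, 1 of these 23 effectors was called higher, where 0.448% of all genes tested were. It was OPTN, or optineurin, an effector of RAB8 that also serves as an autophagy receptor. OPTN had 50.1 and 55.6 CPM in siRAB3IP libraries, 59.3 and 62.9 CPM in siCAMSAP1 libraries and 39.2 and 38.4 CPM in control libraries. Both knockdowns lay above control in every library, with log2 fold changes of 0.45 (edgeR adjusted p = 0.00571) in siRAB3IP and 0.66 ± 0.09 (edgeR adjusted p = 0.00416) in siCAMSAP1. Directly compared, the knockdowns differed by -0.21 in OPTN (siRAB3IP minus siCAMSAP1, edgeR adjusted p = 0.154). The OPTN call in siCAMSAP1 held without any one library.

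RAB11 partners stayed without a call in siRAB3IP against control, where edgeR called 0 of 21 tested, DESeq2 called 0, and 5 had an unadjusted p under 0.05. Over all genes tested, edgeR called 11.6%, and 5765 of 22331 had an unadjusted p under 0.05. In siCAMSAP1 against control 1 of 21 was called, where 0.94% of all genes tested were, and it was RAB11FIP1, a RAB11 effector on recycling endosomes. It had 121 and 119.7 CPM in siCAMSAP1 libraries and 94.6 and 94.5 CPM in control libraries (log2 fold change 0.35 ± 0.07, edgeR adjusted p = 0.0487). That call lay close to the threshold and ended when any one of the 6 libraries was left out, with adjusted p by edgeR of 0.0787 without siRAB3IP replicate 1 up to 0.283 without siCAMSAP1 replicate 1. Upper-quartile scaling gave 0.0591 and a fit of the compared groups alone 0.0905.

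Of 14 further genes on the exocyst list, which holds the subunits, their relatives and the small GTPases that bind the complex, edgeR called 1 higher and 0 lower in siRAB3IP against control, where 6.39% of all genes tested were called higher and 5.24% lower. The list's median log2 fold change was -0.09. Among the other subunits of the complex, log2 fold changes were as follows. EXOC4 had -0.27 (edgeR adjusted p = 0.135), EXOC3 had -0.21 (0.104), EXOC2 had -0.09 (0.513), EXOC7 had -0.09 (0.538), EXOC6 had -0.10 (0.458), EXOC5 had -0.01 (0.957) and EXOC8 had 0.15 (0.271). EXOC6B had 0.07 (0.744). Whether EXOC1 differed from these subunits was not tested. The called gene was RHOQ, a GTPase that binds the exocyst, with 61.8 and 83.1 CPM in siRAB3IP libraries and 51.9 and 54.8 CPM in control libraries (log2 fold change 0.44 ± 0.12, edgeR adjusted p = 0.0311). The opposite-strand gene PIGF covers 14.2% of its exon bases. Without siRAB3IP replicate 2 the log2 fold change of RHOQ was 0.21 (edgeR adjusted p = 0.325), and without control replicate 1 or 2 its adjusted p was 0.0996 or 0.0605. A filter at a mean of 5 CPM gave 0.0527. In siCAMSAP1 against control edgeR called 0 of the 14, beside 0.94% of all genes tested, and DESeq2 called 0. Of the 14, 2 had an unadjusted p under 0.05 there, beside 2703 of all 22331 genes.

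Genes of the BBSome and of ciliary entry, the destination of the RAB8 relay in ciliated cells, were called in 5 of 32 cases in siRAB3IP against control, 2 higher and 3 lower, with a list median of -0.06. That is 15.6% of the list beside 11.6% of all genes tested, without matching for expression level. The genes named are therefore values of single genes and not a result about the list. IFT88, a core subunit of intraflagellar transport, had 6.85 and 5.41 CPM in siRAB3IP libraries and 10.3 and 10.8 CPM in control libraries (log2 fold change -0.78 ± 0.15, edgeR adjusted p = 0.00564). TTC8, the BBSome subunit also called BBS8, had 12.7 and 10.97 CPM in siRAB3IP libraries and 20.9 and 15.7 CPM in control libraries (-0.63 ± 0.14, edgeR adjusted p = 0.0144). BBS10, a chaperonin-like protein needed to assemble the BBSome, had 14.4 and 15.3 CPM in siRAB3IP libraries and 22.3 and 21.3 CPM in control libraries (-0.55 ± 0.10, edgeR adjusted p = 0.00476). The BBS10 call held without any one library. Without siRAB3IP replicate 2 the adjusted p by edgeR was 0.0614 for IFT88 and 0.125 for TTC8, and without control replicate 1 it was 0.113 for TTC8. The list holds both of its higher genes, RAB12 and RAB29, in common with the RAB list below. In siCAMSAP1 against control 0 of 32 were called by edgeR and by DESeq2, where edgeR called 0.94% of all genes tested. Of the 32, 4 had an unadjusted p under 0.05 there, beside 2703 of all 22331 genes.

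Among 12 tested kinases of RAB3IP, RAB3 GTPases and RAB3 regulators, edgeR called 1 in siRAB3IP against control, or 8.33% of the list beside 11.6% of all genes tested. It was RAB3D, a GTPase of regulated secretion. RAB3D had 9.89 and 9.99 CPM in siRAB3IP libraries and 13.2 and 13.5 CPM in control libraries (log2 fold change -0.42 ± 0.11, edgeR adjusted p = 0.0272). The call ended when either siRAB3IP or either control library was left out, with adjusted p by edgeR of 0.0779 to 0.125. On the opposite strand AC011472.3 covers 20.5% of the exon bases of RAB3D and had 0 fragments. In siCAMSAP1 against control edgeR called 0 of the 12, beside 0.94% of all genes tested, and DESeq2 called 1. Of the 12, 1 had an unadjusted p under 0.05 there, beside 2703 of all 22331 genes.

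The remaining RAB GTPase genes were called more often as higher than as lower. Of 63 such symbols, 51 were tested, among them the pseudogene RAB43P1, and edgeR called 11 higher and 1 lower in siRAB3IP against control, or 23.5% of the list beside 11.6% of all genes tested. Of all genes tested, 6.39% were called higher and 5.24% lower. As for the effectors, these shares were not matched for expression level, and the called share of all genes was larger at a mean of 5 CPM or more. The median log2 fold change of the 51 was 0.11. RAB27B, a GTPase of secretory granules and exosome release, had 10.2 and 10.7 CPM in siRAB3IP libraries, 3.82 and 3.12 CPM in siCAMSAP1 libraries and 4.15 and 4.50 CPM in control libraries. It was 2.42-fold higher in siRAB3IP than in control (log2 fold change 1.27 ± 0.15, edgeR adjusted p = 0.000369), and that call held without any one library. RAB39A, a GTPase of late endosomes and phagosomes, had 1.98 and 1.84 CPM in siRAB3IP libraries and 1.02 and 0.944 CPM in control libraries (0.96 ± 0.27, edgeR adjusted p = 0.0349). The RAB39A call was absent in DESeq2 (adjusted p = 0.0950) and without any one of the siRAB3IP or control libraries (adjusted p by edgeR of 0.0882 to 0.151).

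RAB32, a GTPase of mitochondria and lysosome-related organelles, had 63.8 and 66.1 CPM in siRAB3IP libraries, 57.0 and 62.5 CPM in siCAMSAP1 libraries and 46.3 and 45.3 CPM in control libraries. It was higher in siRAB3IP than in control (log2 fold change 0.50 ± 0.08, edgeR adjusted p = 0.00232), and this held without any one library. In siCAMSAP1 its log2 fold change was 0.38 ± 0.08 with an edgeR adjusted p of 0.0494. It was the 1 of 51 called there, beside 0.94% of all genes tested. The siCAMSAP1 call ended without any one of the 6 libraries, with adjusted p by edgeR from 0.0762 without siRAB3IP replicate 1 to 0.312 without siCAMSAP1 replicate 2. It also ended with upper-quartile scaling (0.0598), a filter at a mean of 5 CPM (0.0630) and a fit of the compared groups alone (0.0924). The gene called lower in siRAB3IP against control was RAB3D. The other genes called higher in siRAB3IP were RAB21, RAB30, RAB18, RAB12, RAB9B, RAB29, RAB22A and RAB1A. Their log2 fold changes ran from 0.49 for RAB21 to 0.26 for RAB1A, and their edgeR adjusted p from 0.00252 for RAB21 to 0.046 for RAB30. RAB9B (0.0446) and RAB1A (0.0421) also lay close to the threshold. Whether these calls held without single libraries was not examined. Of these 8, edgeR also called 3 higher in siRAB3IP than in siCAMSAP1 libraries, RAB18 (log2 fold change 0.67, adjusted p = 0.00041), RAB30 (0.60, 0.0166) and RAB21 (0.29, 0.0444). These 8 higher genes lie outside the rule for named genes and were named after their values were seen, to complete the count.

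**Figure D5:**
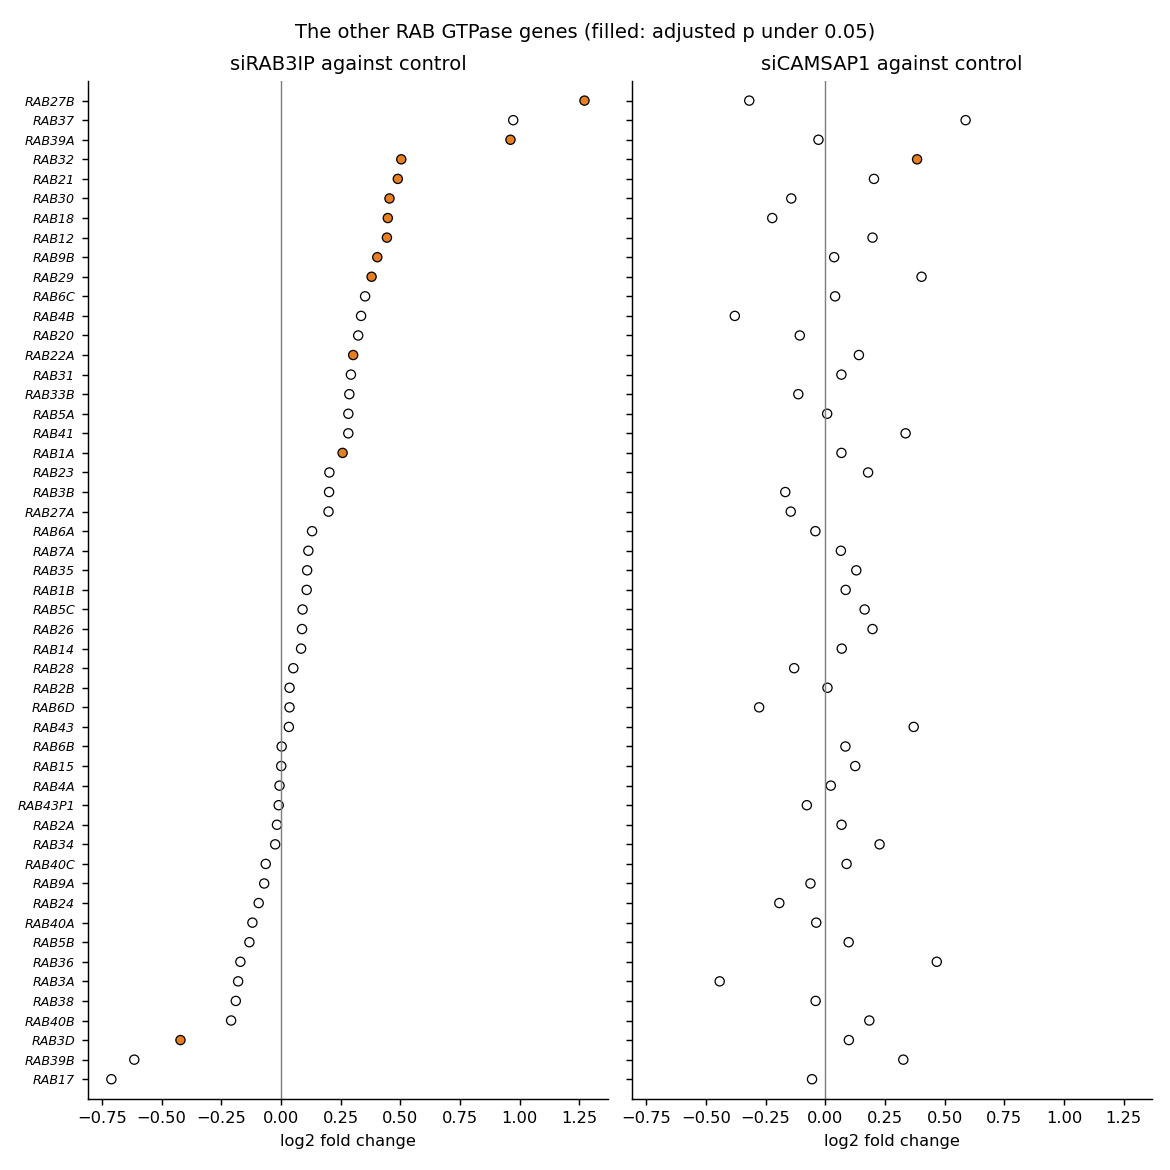
Log2 fold change (x axis) of the 51 other RAB GTPase symbols tested (y axis, ordered by siRAB3IP against control) in siRAB3IP against control and in siCAMSAP1 against control. Filled points have an edgeR adjusted p under 0.05, 12 in siRAB3IP (11 higher, 1 lower) and 1 in siCAMSAP1; both panels share the control libraries.

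Similarity of profile was described by Pearson's r of log2 CPM over the 6 libraries, among 8243 genes whose mean reached 20 CPM. No p is given, since the libraries form 3 groups. The profiles most like that of RAB3IP were those of SEC63 (r = 0.997), HNRNPH1 (r = 0.993) and MPP6 (r = 0.989). HNRNPH1, a splicing regulator, had 488 and 488 CPM in siRAB3IP libraries, 393 and 434 CPM in siCAMSAP1 libraries and 398 and 438 CPM in control libraries; as for RAB3IP, both siRAB3IP libraries were above all others. Most like RAB8B were ZYG11B (r = 0.999), CCND1 (r = 0.996) and LAPTM4A (r = 0.996). CCND1, which encodes cyclin D1, had 50.7 and 52.0 CPM in siRAB3IP libraries, 114 and 116 CPM in siCAMSAP1 libraries and 111 and 122 CPM in control libraries. Within the set, RAB8B and EXOC1 had r = 0.941. RAB8B had r = -0.877 with RAB10, -0.873 with RAB11A and -0.847 with RAB3IP.

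Annotated 3′ UTRs of the 10 genes were searched for the word TGACTTAA, which earlier work on these libraries had found in genes lower in siRAB3IP, so its count among lower genes is no independent evidence. The word occurs in 3 of the 10 genes, RAB3IP, RAB8B and RAB10, and of these RAB8B fell. Each stretch of the longest annotated 3′ UTR is shown from 5′ to 3′ on the plus strand of GRCh38 (GENCODE), with the word in capitals, so that the carrier that fell can be set beside those that did not.
RAB8B, chr15:63264360-63264389, word at position 752 of 4163: tttcccatgttTGACTTAAgtgtaatcact
RAB3IP, chr12:69817165-69817194, word at position 1730 of 7758: aagtttgttgaTGACTTAAaaaggataaat
RAB10, chr2:26137048-26137077, word at position 2038 of 2433: attcaattccaTGACTTAAggttggagagc
Log2 fold changes in siRAB3IP against control were -0.54 for RAB8B, 0.17 for RAB3IP and 0.14 for RAB10. Counting the printed site, the first 7 bases of the word occur at 2 places in RAB8B and at 1 place each in RAB3IP and RAB10. EXOC1, which fell, does not hold the word in its annotated 3′ UTRs, and holds only its last 7 bases. RAB11A, which was not called (log2 fold change 0.09), likewise holds only those last 7 bases. Among 14592 genes tested that have an annotated 3′ UTR, 729, or 5.00%, hold the word. Of these carriers 17.7% were called lower in siRAB3IP against control, beside 5.97% of the 11920 genes with neither 7-base part of it. In siCAMSAP1 against control the shares called lower were 0.549% of carriers and 0.646% of those other genes. Carriers and other genes were not matched for 3′ UTR length or expression level, and what underlies the difference in siRAB3IP was not tested.

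The 250 bases before the RefSeq start of RAB8B and EXOC1, the genes that fell, are printed with that of RAB8A, the paralog that was not called (GRCh38.p14, plus strand, 5′ to 3′). Capitals mark exact matches, on either strand, to the CCAAT box (CCAAT), the GC box (GGGCGG), the E-box (CACGTG), the cyclic AMP response element or CRE (TGACGTCA), the TATA box (TATAAA) or the AP-1 site (TGACTCA). Of all windows of this length, 32.0% hold CCAAT, 42.6% a GC box, 6.34% an E-box, 1.65% a CRE, 10.7% a TATA box and 4.20% an AP-1 site, and no match overlaps another in the windows shown.
RAB8B, chr15:63189356-63189605: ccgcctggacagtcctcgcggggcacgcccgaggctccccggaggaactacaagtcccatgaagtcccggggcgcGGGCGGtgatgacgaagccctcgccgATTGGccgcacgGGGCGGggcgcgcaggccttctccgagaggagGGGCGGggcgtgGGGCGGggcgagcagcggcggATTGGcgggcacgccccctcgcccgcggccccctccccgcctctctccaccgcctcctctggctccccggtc
EXOC1, chr4:55853398-55853647: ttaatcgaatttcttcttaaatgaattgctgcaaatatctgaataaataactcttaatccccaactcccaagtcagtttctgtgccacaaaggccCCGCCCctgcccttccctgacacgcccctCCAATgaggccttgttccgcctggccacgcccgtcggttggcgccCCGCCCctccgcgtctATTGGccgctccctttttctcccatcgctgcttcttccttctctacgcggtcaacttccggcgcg
RAB8A, chr19:16111639-16111888: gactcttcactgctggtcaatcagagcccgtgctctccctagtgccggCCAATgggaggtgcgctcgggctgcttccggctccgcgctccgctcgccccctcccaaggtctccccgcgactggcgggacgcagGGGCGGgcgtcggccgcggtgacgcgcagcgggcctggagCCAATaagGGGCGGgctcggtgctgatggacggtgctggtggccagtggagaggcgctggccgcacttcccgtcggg
All 3 windows hold 2 CCAAT matches each and GC boxes, 4 in RAB8B, 2 in EXOC1 and 2 in RAB8A. Of 35116 RefSeq promoter windows of this length, 13.1% hold a CCAAT box together with a GC box. GC content was 77.2% in RAB8B, 55.6% in EXOC1 and 72.4% in RAB8A, beside a median of 58.0% over all windows. Whether these matches bear on the levels of the 3 genes was not tested, and a match is a description of letters only.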

How the data were processed

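The counts are fragments per gene that the authors made with featureCounts 1.6.0, on paired fragments and without a strand setting, per the file headers. The submitters' processing notes also name STAR, DESeq2 and hg19. The authors' deposited tables of called genes hold a signal per library, which is a count divided by a size factor, together with log2 fold changes and p-values from the authors' own test. Signal columns were used only to match libraries to table names, within 1e-09.

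Here, 52526 of 63677 genes were matched to a symbol, and 21724 had no fragment. The test on counts was the two-sided quasi-likelihood test of edgeR 4.0.16 (R 4.3.3, default filter, TMM), as 1 model of 3 groups with 3 residual degrees of freedom, with Benjamini-Hochberg adjustment over all genes. CPM are TMM-scaled in the tests, and TPM use the table's gene lengths. SE is the absolute log2 fold change over the square root of the test's F. The procedure was tested on simulated data. Alternatives were RLE and upper-quartile scaling, other filters, DESeq2 1.42.0, fits restricted to the groups compared, a replicate block, leaving out each library and grouping by sample titles or genotype field.

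The 10 genes and the context lists were chosen with earlier results of these data known. Named context genes are up to 3 called genes per list and control comparison with the largest change and a mean of at least 1 CPM; 1 context list is not reported here. Promoters are from RefSeq (GRCh38.p14) and 3′ UTRs from GENCODE (GRCh38). The floor of 3 counts covers counting error only.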

Additional observations from a re-analysis of the deposited data

How the results depend on the processing

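Table names, sample titles and the genotype field group the libraries differently, and this choice mattered most. Grouped by titles or by genotype field, edgeR called 0 genes in each comparison and 0 of the 10 genes. By titles, log2 fold changes of siRAB3IP against control turned for RAB3IP (-0.079), RAB3IL1 (-0.0078), RAB8B (0.31), RAB10 (-0.067), RAB11A (-0.098), RAB11FIP3 (-0.038), EXOC1 (0.14), RPGR (0.23), RIMS1 (-0.49), MICALL2 (-0.27), MYO5C (0.30), IFT88 (0.21), TTC8 (0.035), BBS10 (0.065), RAB3D (0.26), RAB27B (-0.78), RAB39A (-0.57) and RAB32 (-0.11). Those of siCAMSAP1 against control turned for RAB3IP (0.031), RAB10 (-0.0053) and RAB11FIP3 (-0.020). For siRAB3IP against siCAMSAP1 they turned for RAB3IP (-0.11), RAB3IL1 (-0.42), RAB8B (0.28), RAB10 (-0.062), RAB11A (-0.045), RAB13 (0.038) and EXOC1 (0.22). By genotype field, siRAB3IP against control turned for RAB8B (0.027), RAB10 (-0.0053), RAB11A (-0.054), RAB11FIP3 (-0.020), RPGR (0.065), MICALL2 (-0.060), MYO5C (0.16), RAB3D (0.074), RAB27B (-0.051) and RAB39A (-0.17). There siCAMSAP1 against control turned for RAB3IL1 (-0.0078), RAB10 (-0.067), RAB11FIP3 (-0.038), EXOC1 (0.14) and RAB32 (-0.11), and siRAB3IP against siCAMSAP1 for RAB8A (0.015), RAB11B (0.032) and RAB11FIP3 (0.018). Under the other settings 564 of 583 log2 fold changes kept their direction. Upper-quartile scaling turned RAB13 in siRAB3IP (-0.0092) and RAB8B in siCAMSAP1 (-0.00068) against control, both uncalled, and scaling moved the median of all genes by at most 0.03. Genes called in siCAMSAP1 against control numbered 560 with no filter and 362 with DESeq2, against 210. Same-numbered libraries deviated together (r = 0.445 to 0.532 over 11784 genes), but with 2 pairs the numbers are only a hint of pairing. With a replicate block 5371 genes were called in siRAB3IP against control, 1408 in siCAMSAP1 against control and 4630 between the knockdowns, the numbers of the 10 genes called were 3, 0 and 3, and RAB3IP was added between the knockdowns (adjusted p = 0.0379 by edgeR). Leaving out each library gave 1034 to 2491 genes in siRAB3IP against control, 67 to 210 in siCAMSAP1 against control and 620 to 2296 between the knockdowns, with 1 to 2 of the 10 genes called between the knockdowns. Over these fits the log2 fold change against control crossed 0 in siRAB3IP for RAB8A (-0.0020 to 0.087), RAB11B (-0.058 to 0.23), RAB11FIP3 (-0.054 to 0.13) and RAB13 (-0.14 to 0.18). In siCAMSAP1 it crossed 0 for RAB3IP (-0.090 to 0.034), RAB8B (-0.0057 to 0.057), RAB11A (-0.061 to 0.032), RAB11FIP3 (-0.021 to 0.17) and RAB13 (-0.0068 to 0.28). Between the knockdowns it crossed 0 for RAB3IL1 (-0.0021 to 0.49), RAB11FIP3 (-0.086 to 0.021) and RAB13 (-0.27 to 0.031). None of these was called. Of 5 called values among the 10 genes 3 stayed called without any one library, and of 15 among context genes 4 did. The cause of these changes was not tested. A group left with 1 library was assumed to vary like the others. Having 2 libraries a group limits the precision of small differences.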
